A study of Mus musculus with 7 samples.

Results

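The 29 genes examined encode enzymes of cholesterol and fatty acid synthesis and the proteins that regulate them through sterol regulatory element-binding proteins (SREBPs). They were taken by gene symbol from a list of SREBP-pathway genes by a rule that used no measured value. The list itself was chosen with earlier results of these data known. All 29 were found among the 55487 genes counted, and all 29 were among the 18449 genes with enough reads to be tested. RNA from the cervical spinal cord was sequenced in 4 Neat1-KO; hSOD1G93A mice (Neat1-/-, replicates 1 to 4) and 3 Neat1-WT; hSOD1G93A mice (Neat1+/+, replicates 2 to 4), each 8 weeks of age and each giving 1 library. Both groups carried the mutant human transgene hSOD1G93A, which models amyotrophic lateral sclerosis and was maintained in the hemizygous state, so the comparison asks how loss of the long non-coding RNA Neat1 bears on these genes within that model. The mice came from Neat1+/-; hSOD1G93A fathers and Neat1+/- mothers, and mice without the transgene are not analysed here. In whole tissue, fewer cells of a type and less RNA per cell cannot be told apart.

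Cholesterol is built from acetyl-CoA through mevalonate, isoprenoid diphosphates, squalene and lanosterol, and fatty acids are built from acetyl-CoA through malonyl-CoA. When sterols in the membrane of the endoplasmic reticulum are low, SCAP escorts SREBPs to the Golgi apparatus, where they are cleaved, and the released fragment enters the nucleus and activates the genes of both routes, whereas INSIG proteins retain the SCAP-SREBP complex when sterols are high. In the central nervous system cholesterol is made locally, and the oligodendrocytes that form myelin are among its main producers.

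SREBPs act at proximal promoters together with the factors NF-Y and SP1, and 3 of these promoters are shown because they belong to the synthase that makes HMG-CoA (Hmgcs1) and to the 2 members with the largest positive differences between genotypes (Mvk and Acat2). Short motifs were searched on both strands in 300-base RefSeq promoters (GRCm38.p6, 250 bases before to 50 bases after the transcription start): the SREBP site TCACNCCAC, the NF-Y box CCAAT and the SP1 box GGGCGG, which can overlap one another. Of the 29 members, 23 had an entry, with 31 promoters among 32851 in all. TCACNCCAC was present in 1 of the 31 (3.23%, against 1.24% of all promoters), CCAAT in 20 (64.5%, against 37.4%) and GGGCGG in 23 (74.2%, against 35.7%). The sequences below end before the annotated gene start, run 5′ to 3′ on the strand of the gene and carry the motifs in capitals. They span chr13:119690101-119690350 on the plus strand for Hmgcs1, chr5:114444019-114444268 on the plus strand for Mvk and chr17:12960748-12960975 on the minus strand for Acat2.
Hmgcs1: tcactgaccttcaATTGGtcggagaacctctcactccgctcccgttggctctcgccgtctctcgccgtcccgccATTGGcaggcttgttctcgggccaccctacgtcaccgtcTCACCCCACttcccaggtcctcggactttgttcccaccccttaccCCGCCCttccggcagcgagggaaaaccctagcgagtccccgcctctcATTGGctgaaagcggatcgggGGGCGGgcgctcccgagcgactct
Mvk: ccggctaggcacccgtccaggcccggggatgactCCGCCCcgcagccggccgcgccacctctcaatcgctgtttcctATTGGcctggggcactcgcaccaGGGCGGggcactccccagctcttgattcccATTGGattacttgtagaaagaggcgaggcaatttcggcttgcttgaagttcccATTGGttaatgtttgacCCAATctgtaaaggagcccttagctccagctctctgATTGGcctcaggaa
Acat2: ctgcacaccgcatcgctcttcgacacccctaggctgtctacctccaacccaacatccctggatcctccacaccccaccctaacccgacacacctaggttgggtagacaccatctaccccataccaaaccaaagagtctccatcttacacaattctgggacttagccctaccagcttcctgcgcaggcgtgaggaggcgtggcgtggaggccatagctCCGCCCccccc
The Hmgcs1 promoter held the only TCACNCCAC match among the members, starting 137 bases before the transcription start, with 3 CCAAT and 2 GGGCGG matches in the stretch shown. The Mvk stretch held 5 CCAAT and 2 GGGCGG matches, and the Acat2 stretch held 1 GGGCGG and no CCAAT match.

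Total counts per library were between 19661878 and 26031517. Neat1, the deleted gene, served as a check of the labels and stood at 4.04 to 5.52 CPM (counts scaled to a common library size with edgeR's TMM factors) in the Neat1-KO libraries and at 80.53 to 118.4 CPM in the Neat1-WT libraries. The tissue markers were present in every library, with summed oligodendrocyte markers at 35930 to 46280 CPM and summed neuronal markers at 10250 to 12450 CPM. Over all genes tested, 6 (0.0325%) passed an adjusted p under 0.1 with an absolute log2 fold change over 0.58 in edgeR's quasi-likelihood test.

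None of the 29 members was among those 6, and none was called in the DESeq2 or limma-voom fits either. By unadjusted p under 0.05 in edgeR, 4 members were higher in Neat1-KO (13.8%, against 2.24% of all genes). At that level 1 member was lower (3.45%, against 2.4% of all genes). DESeq2 and limma-voom each gave 5 members at that level too, against 4.31% and 4.7% of all genes. In 3 members every Neat1-KO library lay above every Neat1-WT library (10.3%, against 2.91% of all genes), and in 0 members did every Neat1-KO library lie below (against 2.57% of all genes). Because the list was chosen with earlier results of these data known, these shares are description only. Of the 29, 16 had a higher and 13 a lower value in Neat1-KO, and their median log2 fold change (Neat1-KO minus Neat1-WT) was 0.0144, beside 0.00619 over all genes tested. The members' log2 fold changes ranged from -0.29 for Idi1 to 0.34 for Mvk, and their adjusted p-values in edgeR ranged from 0.722 to 0.999. In 28 members the 95% interval of the log2 fold change lay wholly between -0.51 and 0.53, inside the limit of 0.58 in both directions, and only Fdps had a wider one.

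**Figure D1:**
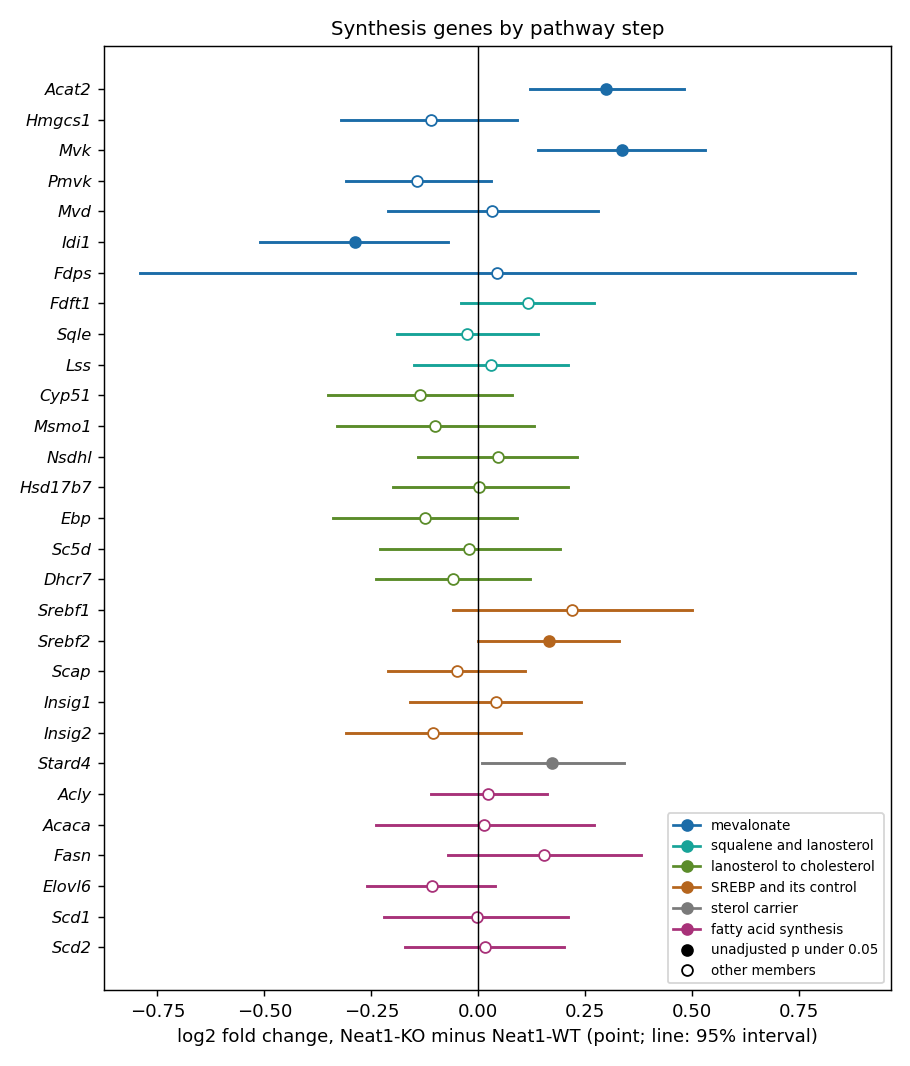
Log2 fold change of each of the 29 genes between 4 Neat1-KO and 3 Neat1-WT libraries (horizontal axis, no unit), listed in pathway order and coloured by step; points are edgeR estimates, lines are 95% intervals and filled points have an unadjusted p under 0.05. Acat2, Mvk, Srebf2 and Stard4 are filled to the right of 0 and Idi1 to the left, and the line of Fdps runs from -0.79 to 0.88.

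The mevalonate steps, from acetyl-CoA to farnesyl diphosphate, held 7 members, of which 4 were higher and 3 lower in Neat1-KO, with a median log2 fold change of 0.0316. Acat2 and Mvk were higher and Idi1 lower at an unadjusted p under 0.05, and the largest enzyme by level, Hmgcs1, showed no difference beyond its spread. Summed over the 7 genes, the step stood at 933.1 ± 60.3 CPM in Neat1-KO (SD, n = 4) and at 981.5 ± 110.4 CPM in Neat1-WT (SD, n = 3). Members of the same route had values in opposite directions.

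Acat2 (chr17:12942890-12960747, minus strand), the cytosolic thiolase that joins acetyl-CoA units, stood at 79.5, 71.7, 81.6 and 70.6 CPM in Neat1-KO libraries 1 to 4. In Neat1-WT libraries 2 to 4 it stood at 65.9, 60.1 and 58.9 CPM. Every Neat1-KO library was above every Neat1-WT library, with means of 75.9 ± 5.50 and 61.6 ± 3.73 CPM (SD). Its log2 fold change was 0.30 (SE 0.083, 95% interval 0.12 to 0.48), with an unadjusted p of 0.0033 and an adjusted p of 0.733 in edgeR. A two-sided exact permutation test gave p = 0.0286, the smallest that the splits of 7 libraries into 4 and 3 allow. Its neighbour Acat3 has a transcript 97.7% identical over 1477 bases, and Acat3 stood at 30.0 to 38.7 CPM with a log2 fold change of -0.02 (SE 0.10), so reads from the identical stretches, which uniquely mapped counting leaves out, limit both values.

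Mvk (chr5:114444269-114460591, plus strand), the mevalonate kinase, stood at 43.8, 39.6, 37.3 and 40.2 CPM in the Neat1-KO libraries and at 29.65, 34.9 and 30.95 CPM in the Neat1-WT libraries. The genotypes did not overlap, and the nearest libraries were Neat1-KO replicate 3 and Neat1-WT replicate 3. The means were 40.2 ± 2.68 and 31.8 ± 2.75 CPM, and the log2 fold change of 0.34 (SE 0.091, 95% interval 0.14 to 0.53) had an adjusted p of 0.722 in edgeR and an exact permutation p of 0.0286.

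Idi1 (chr13:8885501-8892451, plus strand), the isomerase that makes dimethylallyl diphosphate, stood at 77.3, 56.6, 66.2 and 58.3 CPM in the Neat1-KO libraries. The Neat1-WT libraries stood close together at 76.7, 79.65 and 80.04 CPM. Neat1-KO replicate 1 lay among the Neat1-WT libraries and the other 3 lay below them all. The log2 fold change was -0.29 (SE 0.10, 95% interval -0.51 to -0.07), with an adjusted p of 0.992 in edgeR and an exact permutation p of 0.0857. Without Neat1-KO replicate 1 it was -0.39 with an edgeR adjusted p of 0.123. A processed pseudogene, Gm13502, is identical to the Idi1 transcript over 684 bases and held 14 to 27 counts per library.

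**Figure D2:**
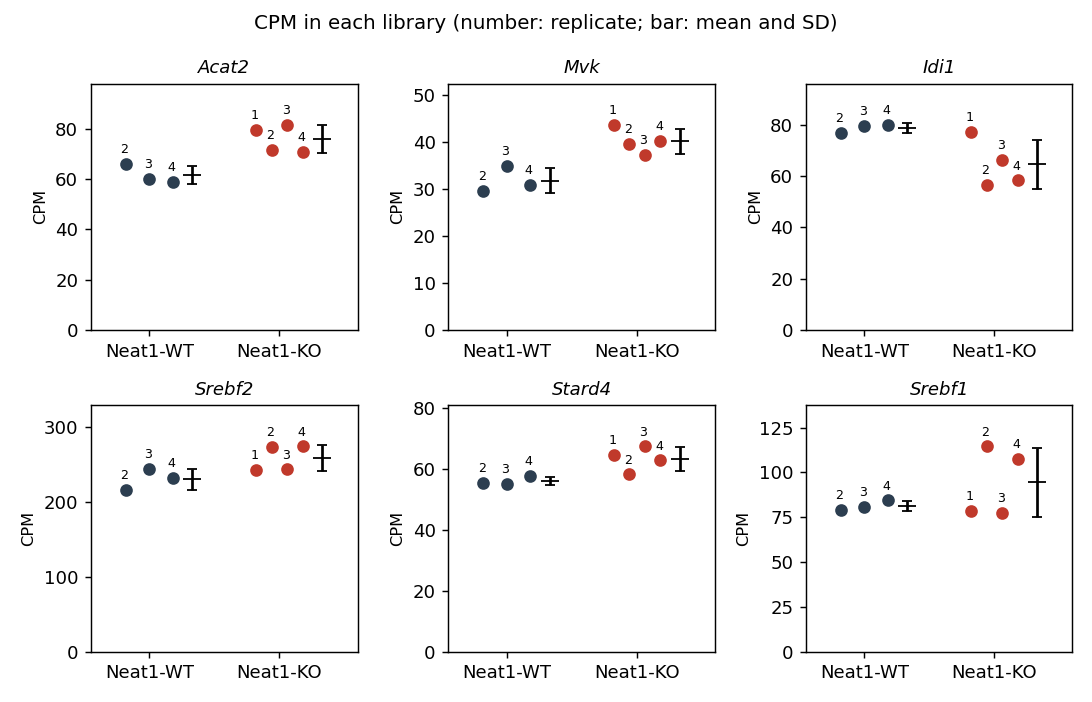
CPM (vertical axes, each from 0) of 6 genes in each library, Neat1-WT in dark blue and Neat1-KO in red, with the replicate number above each point and the mean and SD beside each group. The groups are apart for Acat2, Mvk and Stard4, whereas Neat1-KO replicate 1 sits among the Neat1-WT libraries for Idi1 and replicates 1 and 3 sit just below them for Srebf1.

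Hmgcs1 (chr13:119690379-119708260, plus strand), which makes the HMG-CoA that is reduced to mevalonate, stood at 705.3, 624.2, 705.5 and 634.7 CPM in Neat1-KO and at 630.0, 689.3 and 843.8 CPM in Neat1-WT. The highest library was Neat1-WT replicate 4, and the other 6 lay within 624.2 to 705.5 CPM. The log2 fold change was -0.11 (SE 0.094, 95% interval -0.32 to 0.09, edgeR adjusted p 0.992) and became 0.015 without that library. An antisense gene, Gm48342, shares 557 of the Hmgcs1 exon bases (12.1%) and held 4090 to 5067 counts per library.

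Pmvk, the phosphomevalonate kinase, stood at 41.4 ± 2.09 CPM in Neat1-KO and 45.7 ± 2.02 CPM in Neat1-WT, a log2 fold change of -0.14 (SE 0.079). Mvd, which decarboxylates mevalonate diphosphate, differed by 0.03 on the log2 scale (SE 0.11). Fdps, the farnesyl diphosphate synthase, held only 25, 46, 20 and 35 counts in the Neat1-KO libraries and 49, 19 and 16 in the Neat1-WT libraries. At 0.816 to 2.22 CPM it was far below its pathway neighbours, and its log2 fold change of 0.04 (SE 0.38) had the widest interval of the 29. Its transcript matches several processed pseudogenes at over 90% identity. One of them, Gm3571 (98.9% over 1062 bases), held 138 to 178 counts per library, more than Fdps itself. The annotated gene Gm43738 covers 1124 of the Fdps exon bases (26.7%) on the same strand and was listed at 0 in every library. The low Fdps value is therefore uncertain as a measure of its RNA, and how reads were shared among these genes was not tested.

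The squalene and lanosterol steps held 3 members, none of which differed at an unadjusted p under 0.05. Fdft1, the squalene synthase that commits farnesyl diphosphate to sterols, stood at 173.3, 148.2, 155.4 and 156.6 CPM in Neat1-KO and at 144.7, 148.6 and 144.8 CPM in Neat1-WT. All Neat1-KO libraries but replicate 2 lay above the Neat1-WT libraries, and the log2 fold change was 0.12 (SE 0.071, 95% interval -0.04 to 0.27, exact permutation p 0.0857). The opposite-strand gene Ctsb shares 774 of the Fdft1 exon bases (18.3%). Sqle, the squalene monooxygenase, stood at 163.8, 144.7, 150.5 and 139.1 CPM in Neat1-KO and at 143.8, 153.7 and 159.2 CPM in Neat1-WT. Those libraries were interleaved, and the log2 fold change was -0.03 (SE 0.076, 95% interval -0.19 to 0.14). Lss, the lanosterol synthase, differed by 0.03 (SE 0.081).

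Of the 7 members that convert lanosterol to cholesterol, 2 had a higher and 5 a lower value in Neat1-KO, with a median log2 fold change of -0.0578, and none reached an unadjusted p under 0.05. Cyp51, the lanosterol demethylase, stood at 254.6, 197.2, 214.8 and 181.8 CPM in Neat1-KO and at 224.0, 236.7 and 238.3 CPM in Neat1-WT. Neat1-KO replicate 1 was the highest of all 7 libraries and the other 3 Neat1-KO libraries the lowest, so the SD was 31.3 CPM in Neat1-KO and 7.83 CPM in Neat1-WT. The log2 fold change was -0.14 (SE 0.099, 95% interval -0.35 to 0.08). Msmo1, the methylsterol monooxygenase that follows, showed the same order, with 196.1 CPM in Neat1-KO replicate 1, 139.4 to 163.5 CPM in replicates 2 to 4 and 164.6 to 179.2 CPM in Neat1-WT, and a log2 fold change of -0.10 (SE 0.11). Ebp, the sterol isomerase, likewise stood at 30.1 CPM in Neat1-KO replicate 1, at 23.8 to 25.6 CPM in replicates 2 to 4 and at 27.7 to 28.6 CPM in Neat1-WT, with a log2 fold change of -0.13 (SE 0.097).

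The remaining members of that step differed little between genotypes. Nsdhl, the sterol dehydrogenase, had a log2 fold change of 0.05 (SE 0.083), and Hsd17b7, the ketosteroid reductase, of 0.00 (SE 0.096). Sc5d, the sterol desaturase, had a log2 fold change of -0.02 (SE 0.097) and Dhcr7, the dehydrocholesterol reductase, of -0.06 (SE 0.084).

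Across the 17 sterol enzymes of these 3 steps, 8 were higher and 9 lower in Neat1-KO, and Neat1-KO replicate 1 was the highest when each gene was weighted equally. In summed CPM it came second, at 2199 CPM, below Neat1-WT replicate 4 at 2269 CPM. The mean deviation from each gene's average over the 7 libraries, on the log2 scale, was 0.10 in Neat1-KO replicate 1 and -0.03, -0.0087 and -0.073 in the other Neat1-KO libraries. In the Neat1-WT libraries it was -0.01, -0.017 and 0.035, within the range spanned by Neat1-KO. The count of members at an unadjusted p under 0.05 depended on this library. Without it that count was 10, with Acat2, Mvk, Srebf1, Srebf2 and Fasn higher and Idi1, Cyp51, Msmo1, Ebp and Pmvk lower, although the share of all genes at that level also increased, from 4.64% to 6.85%, and still no member was called. Leaving out Neat1-KO replicate 4 or Neat1-WT replicate 2 lowered the count to 3 members in each case. The share of all genes then fell too, to 3.19% and 3.07%.

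**Figure D3:**
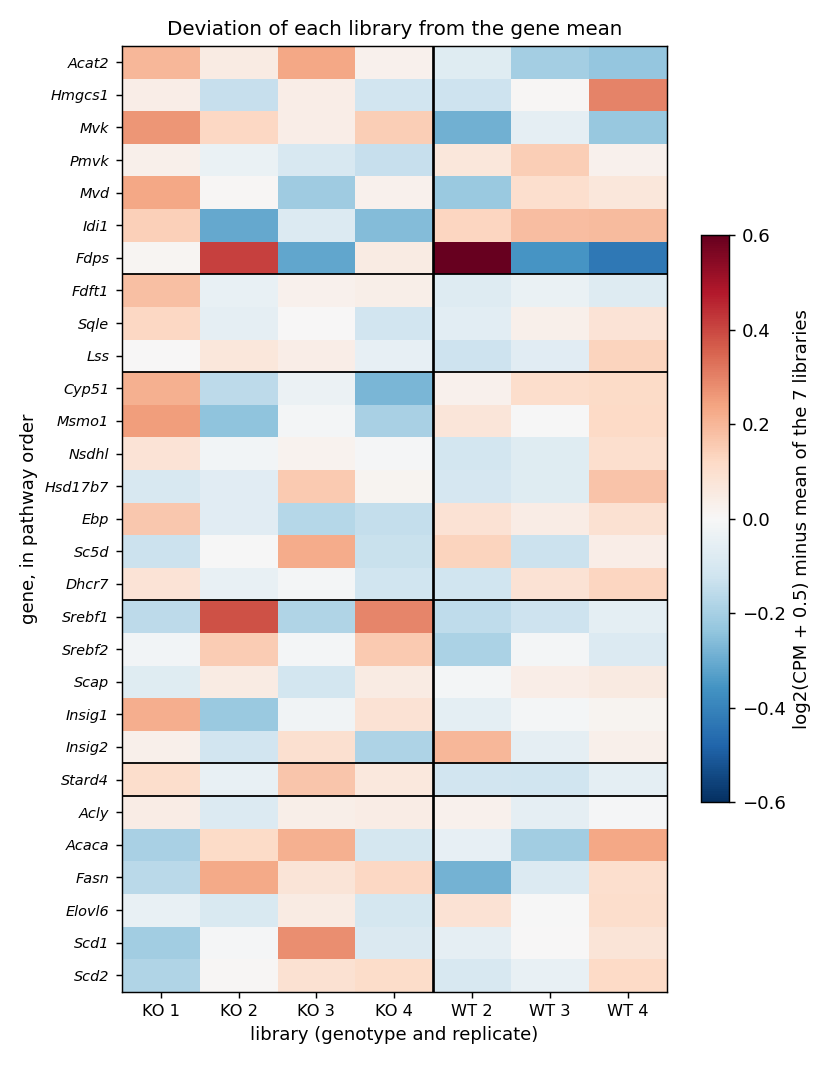
Deviation of log2(CPM + 0.5) from the mean of the 7 libraries (colour scale from -0.6 to 0.6) for the 29 genes in pathway order, with black lines between steps and between genotypes. The first column, Neat1-KO replicate 1, is mostly red in the sterol enzymes and blue in Srebf1, Fasn, Scd1 and Scd2, and Fdps, with under 50 counts per library, varies most between libraries.

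The SREBPs and the proteins that control them held 5 members, 3 higher and 2 lower in Neat1-KO, with a median log2 fold change of 0.0413. Srebf2, whose product acts mainly on sterol genes, stood at 242.7, 273.3, 243.3 and 274.0 CPM in Neat1-KO and at 215.4, 243.5 and 231.9 CPM in Neat1-WT. Only Neat1-WT replicate 3 reached the lower Neat1-KO libraries, and the means were 258.3 ± 17.7 and 230.3 ± 14.1 CPM. The log2 fold change was 0.17 (SE 0.075, 95% interval 0.00 to 0.33), with an unadjusted p of 0.0463 and an adjusted p of 0.992 in edgeR and an exact permutation p of 0.171.

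Srebf1, whose product acts mainly on fatty acid genes, stood at 78.75, 114.5, 77.4 and 107.7 CPM in Neat1-KO and at 78.9, 80.7 and 84.4 CPM in Neat1-WT. Neat1-KO replicates 2 and 4 were high and replicates 1 and 3 lay just below the lowest Neat1-WT library, so the SD was 19.3 CPM in Neat1-KO and 2.78 CPM in Neat1-WT. The log2 fold change was 0.22 (SE 0.13, 95% interval -0.06 to 0.50, edgeR adjusted p 0.992). The same pair of libraries, replicates 2 and 4, was highest for Srebf2.

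Insig1, an endoplasmic reticulum protein that retains SCAP and is itself a target of SREBPs, stood at 217.5, 160.1, 184.1 and 198.3 CPM in Neat1-KO and at 179.4, 185.3 and 189.1 CPM in Neat1-WT. The Neat1-KO libraries lay on both sides of the Neat1-WT libraries, and the log2 fold change was 0.04 (SE 0.093, 95% interval -0.16 to 0.24). Insig2, its paralog, had a log2 fold change of -0.10 (SE 0.095) and Scap, the escort of SREBPs, of -0.05 (SE 0.072). Scap shares 985 exon bases (13.2%) with an opposite-strand gene.

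Stard4 (chr18:33199355-33213862, minus strand), a soluble carrier that moves cholesterol between membranes, stood at 64.5, 58.2, 67.4 and 62.8 CPM in Neat1-KO and at 55.4, 55.1 and 57.7 CPM in Neat1-WT. The genotypes did not overlap, though Neat1-KO replicate 2 and Neat1-WT replicate 4 were close. The means were 63.2 ± 3.86 and 56.1 ± 1.39 CPM and the log2 fold change was 0.17 (SE 0.078, 95% interval 0.01 to 0.34), with an unadjusted p of 0.0443 and an adjusted p of 0.992 in edgeR and an exact permutation p of 0.0571.

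The fatty acid genes held 6 members, of which 4 had a higher and 2 a lower value in Neat1-KO, with a median log2 fold change of 0.0148 and none at an unadjusted p under 0.05. Summed, they stood at 4970 to 6000 CPM in Neat1-KO and at 5222 to 5961 CPM in Neat1-WT. Fasn, the fatty acid synthase, stood at 381.7, 500.4, 449.9 and 465.6 CPM in Neat1-KO and at 350.9, 402.8 and 458.1 CPM in Neat1-WT. Its libraries overlapped widely, and the log2 fold change was 0.15 (SE 0.10, 95% interval -0.07 to 0.38). Acaca, the acetyl-CoA carboxylase that makes malonyl-CoA, stood at 118.3, 146.8, 157.2 and 125.9 CPM in Neat1-KO and at 130.8, 117.1 and 159.2 CPM in Neat1-WT. The genotypes covered the same range, and the log2 fold change was 0.01 (SE 0.12, 95% interval -0.24 to 0.27). A processed pseudogene, Gm5182, is 99.2% identical to Acaca over 6118 bases and held 394 to 580 counts per library.

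Scd1 and Scd2, stearoyl-CoA desaturases that put a double bond into saturated fatty acids, are paralogs with transcripts 95.5% identical over 623 bases. Scd1 stood at 650.0, 746.0, 910.8 and 707.9 CPM in Neat1-KO and at 723.5, 751.0 and 792.0 CPM in Neat1-WT. Neat1-KO replicate 1 was the lowest and replicate 3 the highest of the 7, and the means of 753.7 ± 112 and 755.5 ± 34.5 CPM gave a log2 fold change of -0.0034 (SE 0.099, 95% interval -0.22 to 0.21). Scd2 stood at 3165, 3608, 3824 and 3877 CPM in Neat1-KO and at 3358, 3479 and 3905 CPM in Neat1-WT, a log2 fold change of 0.02 (SE 0.083, 95% interval -0.17 to 0.20). Acly, which makes cytosolic acetyl-CoA from citrate, had a log2 fold change of 0.02 (SE 0.063) and Elovl6, an elongase of saturated fatty acids, of -0.11 (SE 0.071).

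Compared per kilobase of exon, the level of the members spanned from 0.317 CPM per kb for Fdps to 659 CPM per kb for Scd2, as means over the 7 libraries. The Fdps value is uncertain as a measure of its RNA, as described above. Scd2 stood over 4 times above the next members, Scd1 at 154, Hmgcs1 at 150 and Acly at 101 CPM per kb. Insig1 followed at 60.7 and Cyp51 at 50.1 CPM per kb. The synthase Lss (6.63), Acaca (7.99) and Hsd17b7 (8.67) were the lowest members above Fdps, and the kinase Mvk stood at 13.7. The divisor was the union of all annotated exons, 10787 bases for Lss and 17074 bases for Acaca, and a long union lowers the value. Scd2 was the highest in both genotypes, at 662 CPM per kb in Neat1-KO and 655 in Neat1-WT. Scd1 (154 in both) and Hmgcs1 (145 in Neat1-KO and 157 in Neat1-WT) exchanged the next places, within the spread of their libraries.

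**Figure D4:**
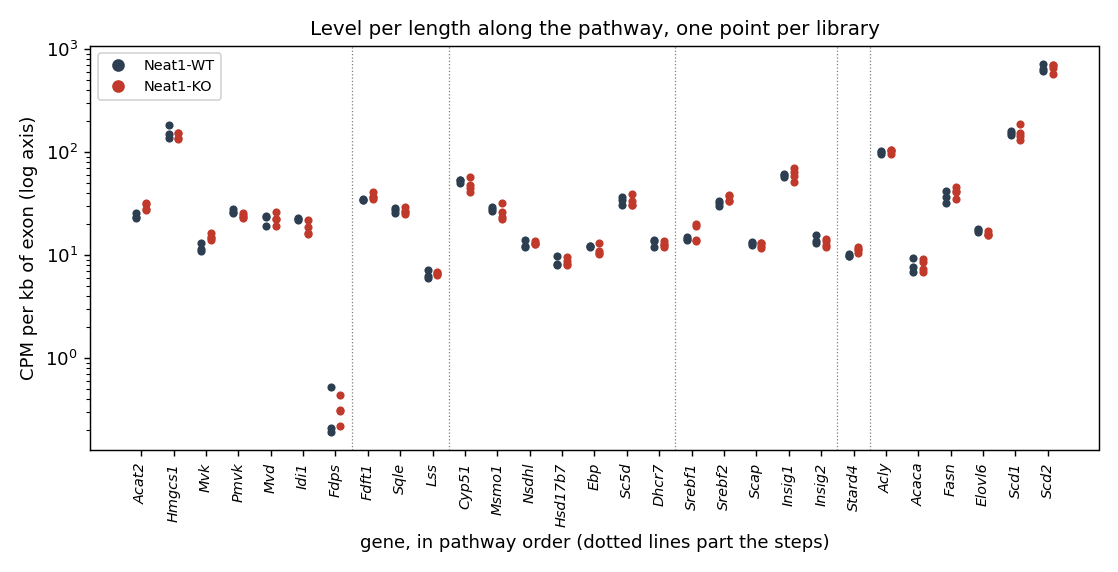
CPM per kb of exon (vertical log axis) of the 29 genes in pathway order, with 1 point per library, Neat1-WT in dark blue and Neat1-KO in red and dotted lines between steps. Scd2 is the highest at 659 and Fdps the lowest at 0.317 CPM per kb on average, and the points of both genotypes lie close together beside that range. The Fdps value is uncertain as a measure of its RNA.

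Among 24 other genes of sterol and fatty acid metabolism or SREBP processing, 11 were higher and 13 lower in Neat1-KO, 0 were called, and the median log2 fold change was -0.00675. At an unadjusted p under 0.05 in edgeR, 0 were higher (against 2.24% of all genes) and 2 were lower (against 2.4% of all genes). Fads1, a desaturase of polyunsaturated fatty acids, stood at 245.5 to 266.3 CPM in Neat1-KO and 278.7 to 299.4 CPM in Neat1-WT. Its libraries did not overlap, as in 2.57% of all genes on the lower side. The log2 fold change of Fads1 was -0.16 (SE 0.066, edgeR adjusted p 0.992). Elovl5, an elongase of polyunsaturated fatty acids, had a log2 fold change of -0.21 (SE 0.09, edgeR adjusted p 0.992), with overlapping libraries.

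Among 17 genes of sterol export, storage and turnover, including liver X receptor (LXR) genes, 9 were higher and 8 lower, 0 were called, and the median log2 fold change was 0.0112. At an unadjusted p under 0.05 in edgeR, 1 was higher (against 2.24% of all genes) and 1 was lower (against 2.4% of all genes). Ch25h, the cholesterol 25-hydroxylase, stood at 0.462 to 1.68 CPM in Neat1-KO and at 0.233 to 0.453 CPM in Neat1-WT. The log2 fold change of Ch25h was 1.32 (SE 0.52, edgeR adjusted p 0.992) on 5 to 44 counts per library. Nr1h3, which encodes LXR alpha, had a log2 fold change of -0.42 (SE 0.19) with an unadjusted p of 0.048 in edgeR (adjusted p 0.992).

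Of 15 oligodendrocyte markers, 14 had a lower value in Neat1-KO (against 48.2% of all genes tested), with a median log2 fold change of -0.156, and 5 of them (Mobp, Cldn11, Ermn, Mal and Ugt8a) had an unadjusted p under 0.05 (against 2.4% of all genes on the lower side), while none was called. Their sum was 35930 to 39030 CPM in Neat1-KO and 37870 to 46280 CPM in Neat1-WT, highest in Neat1-WT replicate 4, the library with the most Hmgcs1. All 6 markers of oligodendrocyte precursors had lower values (against 48.2% of all genes tested), with overlapping sums of 213.3 to 263.3 CPM in Neat1-KO and 235.6 to 326.2 CPM in Neat1-WT. Pdgfra (log2 fold change -0.02, SE 0.13), Cspg4 (-0.02, SE 0.18) and C1ql1 (-0.03, SE 0.15) lay near 0. Gpr17 (-0.31, SE 0.13), Bmp4 (-0.30, SE 0.28) and Enpp6 (-0.20, SE 0.10) were further from it. Only Gpr17 had an unadjusted p under 0.05 in edgeR. Ugt8a, the enzyme that makes galactosylceramide for myelin, had a log2 fold change of -0.43 (edgeR adjusted p 0.605). The sum of oligodendrocyte markers in Neat1-KO replicate 1, 37250 CPM, lay within the range of the other Neat1-KO libraries, unlike the sterol enzymes there.

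Tissue from outside the cord varied between libraries in both genotypes. The 5 Schwann cell markers, which mark peripheral nerve root, summed to 136.3, 269.5, 202.2 and 208.5 CPM in Neat1-KO and to 130.6, 139.1 and 284.7 CPM in Neat1-WT, with Pmp2 at no more than 1 count. Most of each sum was Pmp22, at 123.9 to 232.1 CPM, whereas Prx varied more, from 3.03 to 47.1 CPM. Meningeal fibroblast markers summed to 73.57 to 192.6 and 66.4 to 197.9 CPM and followed an order similar to the Schwann cell sums. Neat1-KO replicate 1 and Neat1-WT replicate 2, the libraries with the lowest sums in both lists, also had the lowest Fasn and Scd2. Adipocyte markers were near the floor, with Adipoq, Cfd, Cidec, Lep and Retn at no more than 2 counts per library. Skeletal muscle markers summed to 2.29 to 2.69 CPM in Neat1-KO and to 2.85, 3.08 and 17.7 CPM in Neat1-WT replicates 2 to 4. Only Neat1-WT replicate 4 stood well above the rest. Astrocyte (4 of 8 higher), neuron (2 of 8 higher), microglia (7 of 8 higher), endothelial (2 of 5 higher) and red blood cell markers (1 of 5 higher) showed none called. The part that the mixture of cells had in the members' values was not tested.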

How the data were processed

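The authors prepared poly(A)-selected directional libraries from RNA of whole cervical cord, sequenced both ends, and deposited raw read counts per gene, not pooled. Per the submitters' processing notes, the tools were FastQC 0.11.7, Trimmomatic 0.38, HISAT2 2.1.0, SAMtools 1.9 and featureCounts 1.6.3 on mm10, and only uniquely mapped reads were counted, which lowers genes with near-identical copies. The annotation release and strand setting are not given in the sources used here, so reads of a gene and an antisense partner may not be told apart. Symbols and positions came from GENCODE M21 (GRCm38), for 55227 of 55487 genes.

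All 7 libraries entered 1 edgeR 4.0.16 quasi-likelihood fit (R 4.3.3; TMM, filterByExpr, Benjamini-Hochberg over 18449 genes). The limits for a call (0.1 for the adjusted p, 0.58 for the size of the log2 fold change) were taken from the study. No batch is labelled. DESeq2 1.42.0, limma 3.58.1 (voom), other scalings and filters, and leaving out each library were alternatives. Copies were transcripts of at least 90% identity by BLAST 2.17.0. The fit was tested on simulated data with planted changes larger than that of any member. That test does not show how well differences of the members' size are found. No p was computed over a list. Another Schwann cell marker, beside the 5 summed, is not reported here. The rule for the members used no measured value, but members and lists were chosen with earlier results of these data known. Every member is named; values per library are given for members at an unadjusted p under 0.05 or without overlap and for Hmgcs1, Fdft1, Sqle, Cyp51, Insig1, Srebf1, Srebf2, Fasn, Acaca, Scd1 and Scd2. Of the 2 other pathway lists, genes at an unadjusted p under 0.05 are named. CPM values use TMM-scaled library sizes, and ± is the SD over libraries (n = 4 and n = 3).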

Additional observations from a re-analysis of the deposited data

Results flagged for a closer look

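In 1 of the 29 members, a Neat1-KO library stood apart from the other Neat1-KO libraries of its group. Acly stood at 504.1 CPM in Neat1-KO replicate 2 and at 546.6 to 550.1 CPM in the other 3, so that the gap to the nearest library was 0.924 of the range of the group, above Dixon's critical value for 4 samples. The Neat1-WT libraries stood at 513.6 to 543.7 CPM. Chance alone flags about 1 in 20 groups, which would be 1.45 of 29.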

How the results depend on the processing

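No member was called under any of 15 alternatives, and 18 of the 29 kept their direction in all of them. Acat2 (0.26 to 0.35), Mvk (0.28 to 0.41) and Idi1 (-0.39 to -0.23) had an unadjusted p under 0.05 in all 15, with adjusted p-values between 0.204 and 1.0, 0.165 and 1.0, and 0.123 and 1.0, whereas Srebf2 did so in 8 and Stard4 in 5. Members at an unadjusted p under 0.05 numbered 3 with median-of-ratios factors (against 4.69% of all genes). They numbered 3 to 10 when 1 library was left out (against 3.07% to 7.78% of all genes). Members with lower values numbered 11 to 17, and the median log2 fold change of the 29 was -0.0292 to 0.0295 when 1 library was left out. All genes called numbered 124 without a filter on low counts, 27 with DESeq2, and 3 (without Neat1-WT replicate 3) to 31 (without Neat1-KO replicate 1) when 1 library was left out (11 without Neat1-WT replicate 4). The cause was not tested.

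The labels do not say whether the replicate numbers pair the libraries. The deviations of the same-numbered libraries had correlations of -0.238, -0.162 and -0.0119. Those of differently numbered libraries ranged from -0.278 to 0.213, so with so few libraries these values cannot decide whether the numbers pair them. With the replicate number as a block, 39 genes and 0 members were called. In that fit 7 members had an unadjusted p under 0.05, as did 5.02% of all genes. The block, which left Neat1-KO replicate 1 without a partner, turned Mvd to -0.043, Sc5d to 0.014, Insig1 to -0.035 and Scd1 to 0.054.

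The direction of 11 members changed in an alternative. Most of them lay close to 0 in the main fit, whereas Hmgcs1 stood at -0.11. With Xist as a covariate Mvd was -0.047 and Scd1 0.016. Hsd17b7 was -0.0026 with median-of-ratios factors, -0.00042 without a filter and -0.0024 with DESeq2. When 1 library was left out, Hmgcs1 was -0.20 to 0.015, Mvd -0.065 to 0.10, Fdps -0.20 to 0.67, Sqle -0.075 to 0.0067, Lss -0.021 to 0.11 and Hsd17b7 -0.052 to 0.092. Likewise Sc5d was -0.11 to 0.040, Insig1 -0.032 to 0.11, Acaca -0.082 to 0.14, Scd1 -0.11 to 0.058 and Scd2 -0.029 to 0.080. Fdps had the fewest counts of the members, 16 to 49 per library, and this low value is uncertain as described above.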

Other observations

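Sex is not among the labels of these libraries. Xist, which is expressed from the inactive X chromosome, held 0 to 4 counts in each of the 7 libraries. The Y-linked gene Ddx3y was present in all 7, with 82.8, 75.8, 86.6 and 39.9 CPM in the 4 Neat1-KO libraries against 84.8, 81.5 and 94.4 CPM in the 3 Neat1-WT libraries. Neat1-KO replicate 4 had the lowest Ddx3y value. With Xist near 0 and Ddx3y present, all 7 libraries had the pattern of male mice, so the values here describe males. The paper states that both sexes were used in all experiments, in sex-balanced groups. The covariate of Xist named above rested on near-empty counts.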
